A study of Homo sapiens with 8 samples.

Results

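The immediate early AP-1 and EGR genes were 10 genes taken by symbol from the deposited expression values, *FOS*, *FOSB*, *FOSL1*, *JUN*, *JUNB*, *JUND*, *ATF3*, *EGR1*, *IER2* and *DUSP1*. All 10 were among the 19770 genes in the files, and all 10 passed the filter on low values, under which 15122 genes were tested. RNA-seq was performed in HEK293T, a transformed human embryonic kidney cell line, at 72 h after plasmid transfection, in 4 groups of 2 libraries each. Every group received a pool of *HBG1*/*HBG2* gRNAs, which direct a nuclease-dead Cas9 to the fetal gamma-globin promoters and are not designed against any gene described here.

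In the text DREAM and SAM stand for the CRISPR-DREAM and SAM systems. The control was dCas9 + MCP-mCherry, in which the MS2 coat protein (MCP) carries a fluorescent protein in place of an activator. CRISPR-DREAM was dCas9 + MCP-MSN, in which MCP carries the activator MSN. The SAM system was dCas9-VP64 + MCP-p65-HSF1. These 3 groups received 187.5 ng of each plasmid and 125 ng of MS2-modified gRNAs. The dCas9-VPR group received 375 ng of 1 plasmid, which fuses the activator to dCas9 directly, and 125 ng of gRNAs without the MS2 modification. A difference between dCas9-VPR and any other group therefore cannot be told apart from a difference in plasmid make-up or gRNA type. The effectors were expressed from transiently transfected plasmids, and the labels describe no selection of transfected cells. The labels do not say whether the libraries of a group came from separate cultures, so the spread between them may be technical.

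Immediate early genes are transcribed within minutes of a growth signal or a stress, from factors already present in the cell. AP-1 is a dimer of basic leucine zipper proteins, in which FOS proteins need a JUN partner while JUN proteins can also pair with each other or with ATF proteins such as *ATF3*. *EGR1* is a zinc finger factor that is switched on with *FOS* by serum response factor (SRF) and its ternary complex partners, *IER2* is a nuclear protein of the same early wave, and *DUSP1* is a phosphatase that removes the activating phosphates from MAP kinases. The cells were harvested at 72 h, so an early wave after transfection was not sampled.

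Values are in CPM, a gene's estimated reads scaled to the total of its library, and differences are log2 fold changes of CPM + 0.5 fitted by limma with their standard error (SE). The adjusted p is the Benjamini-Hochberg value over all 15122 genes. Past the threshold means changed more than 2-fold with a false discovery rate (FDR) below 0.05, and called at any fold means that the FDR alone was below 0.05. The words rose and fell are used below only of a gene called at any fold. All 3 comparisons with the control share the same 2 control libraries, and the comparisons between systems share libraries with them, so they are not independent of each other.

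The libraries held an estimated 28.4 to 35.1 M reads, at which 3 reads were worth 0.0854 to 0.106 CPM. Summed *HBG1* and *HBG2* were at 0.838 to 1.29 CPM in the control libraries, 2195 to 2886 CPM with DREAM, 709 to 863 CPM with SAM and 202 to 219 CPM with dCas9-VPR, above the control in every activator library. Of 7 markers of HEK293T, *VIM*, *KRT18*, *KRT8*, *CDH2* and *NEFL* were at 33.3 CPM or more in every library, while the kidney factors *PAX2* and *LHX1* were at 0.798 to 1.73 and 1.11 to 2.25 CPM. Their sum was 567 to 633 CPM in the control libraries, 560 to 630 with DREAM, 580 to 648 with SAM and 689 to 735 with dCas9-VPR, but single markers moved. *KRT8* averaged 47.7 CPM in the control and rose to 110 with DREAM (adjusted p = 1.3e-05) and 99.9 with SAM (2.5e-05), both past 2-fold, and to 85.3 with dCas9-VPR (0.00038). *VIM*, at 370 CPM in the control, fell to 292 with DREAM (adjusted p = 0.037) and 303 with SAM (0.048) and was at 426 with dCas9-VPR (0.20). Of 8 markers of other cell types 4 were in the files, and *CD14*, *PECAM1* and *DCN* were at or below 1.19 CPM in every library. *PECAM1* was nonetheless at 1.03 and 1.17 CPM with SAM and 0.57 and 0.46 CPM with DREAM. The control libraries held 0.032 and 0.13 CPM (about 1 and 4 reads). *PECAM1* passed the filter on low values only through the SAM libraries, where it was highest, so no p is given for it. *CD14* was lower with dCas9-VPR, at 0.23 and 0.22 CPM (about 8 and 7 reads) against 0.89 and 1.04 in the control (about 28 and 32 reads). The DREAM libraries held 0.32 and 1.19 CPM. *CD14* passed the filter only through replicate 2 of the control and replicate 2 of DREAM, so no p is given for it either. Collagen *COL1A1* was at 8.51 to 15.5 CPM and carried most of that list's sum, which was 10.2 CPM in both control libraries and 12.8 to 17.6 CPM in the activator libraries. The part of these markers in the results below was not tested.

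The regions just upstream of 4 of the genes are shown, chosen after their values were seen. They are those of *EGR1*, which rose in all 3 systems, of *ATF3*, which fell in all 3, and of *JUN* and *JUND*, which fell with DREAM and SAM and were lower there than with dCas9-VPR. Each sequence is the 250 bases before the RefSeq start site on GRCh38.p14, read 5′ to 3′ on the gene's own strand. Capitals mark matches to 5 motifs searched on both strands, namely the AP-1 site TGANTCA, the 8-base CRE-like site TGANNTCA, the EGR site GCGNGGGCG, the TATA box TATAAA and the CArG box bound by SRF.
EGR1 (chr5:138465229-138465478, + strand): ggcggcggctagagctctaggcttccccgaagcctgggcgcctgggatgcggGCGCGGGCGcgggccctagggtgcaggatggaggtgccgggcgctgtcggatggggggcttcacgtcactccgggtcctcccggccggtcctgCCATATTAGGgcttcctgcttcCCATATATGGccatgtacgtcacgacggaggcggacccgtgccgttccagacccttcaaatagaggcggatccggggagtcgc
ATF3 (chr1:212565157-212565406, + strand): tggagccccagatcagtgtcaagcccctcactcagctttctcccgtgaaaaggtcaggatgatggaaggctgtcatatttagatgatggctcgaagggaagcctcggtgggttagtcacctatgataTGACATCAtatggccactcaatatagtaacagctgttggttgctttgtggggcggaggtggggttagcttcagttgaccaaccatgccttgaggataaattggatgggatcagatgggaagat
JUN (chr1:58784048-58784297, - strand): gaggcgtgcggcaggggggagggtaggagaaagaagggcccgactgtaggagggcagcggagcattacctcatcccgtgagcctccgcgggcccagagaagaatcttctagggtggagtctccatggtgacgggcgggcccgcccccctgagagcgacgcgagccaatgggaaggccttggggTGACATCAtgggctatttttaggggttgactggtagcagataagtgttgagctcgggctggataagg
JUND (chr19:18281623-18281872, - strand): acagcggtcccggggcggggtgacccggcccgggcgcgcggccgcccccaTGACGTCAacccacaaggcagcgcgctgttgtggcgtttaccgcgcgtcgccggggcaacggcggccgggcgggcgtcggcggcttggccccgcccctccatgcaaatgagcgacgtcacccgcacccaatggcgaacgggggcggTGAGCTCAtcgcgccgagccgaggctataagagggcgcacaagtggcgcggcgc

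The *EGR1* window held 2 CArG boxes, at -105 to -96 and -83 to -74 from the start, and 1 EGR site at -198 to -190. The *ATF3* and *JUN* windows each held a TGACATCA, at -123 to -116 and at -67 to -60. The *JUND* window held TGACGTCA at -200 to -193 and TGAGCTCA at -54 to -47. RefSeq windows matched 9 of the 10 genes, with 2 windows for *ATF3*, and none was at hand for *FOSL1*. Of these 10 windows, 4 held TGANNTCA (*ATF3* in its upstream window, *DUSP1*, *JUN* and *JUND*). TATAAA was in 5, those of *DUSP1*, *FOS*, *FOSB* and *JUNB*, within -33 to -25, and the downstream window of *ATF3*, at -230 to -225. A CArG box was in 1, an EGR site in 1 and TGANTCA in 0. Of all 35116 RefSeq windows of this length, 10.1% held TGANNTCA, 10.7% TATAAA, 1.16% a CArG box, 8.41% an EGR site and 6.57% TGANTCA. A match is only a match of letters in this window and shows no binding.

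As genes, the 10 were short. Their median span was 4164 bp against 31029 bp over all genes tested, their median exonic length was 3108 bp against 5259.5 bp, and their canonical transcripts had a median of 3 exons against 8. *JUN*, *JUNB* and *JUND* each had 1 exon. On hg38, 4 of them lie on chromosome 19, namely *FOSB* (chr19:45467995-45475180), *JUNB* (chr19:12791486-12793316), *JUND* (chr19:18279694-18281623) and *IER2* (chr19:13150411-13154912). *JUN* (chr1:58776845-58784049) and *ATF3* (chr1:212565334-212620778) lie on chromosome 1, and *EGR1* (chr5:138465479-138469304) and *DUSP1* (chr5:172768096-172771196) on chromosome 5. *FOS* is at chr14:75278826-75282231 and *FOSL1* at chr11:65892049-65900574. Genes on the opposite strand cover exonic bases of 2 of them, *IER2* and *JUNB*. *HOOK2* covers 14.2% of the exonic bases of *JUNB*, and long noncoding RNA genes cover up to 30.7% of those of *IER2*. The library kit kept strand, but whether the authors' quantification used it is not given in the sources used here, so these 2 values could include reads of the other strand. *FOSB* lies within *ERCC1* on the other strand, with 0 exonic bases shared. *ERCC1* was at 77.4 and 72.9 CPM in the control libraries, 98.0 and 100 with DREAM, 88.9 and 94.4 with SAM and 74.5 and 79.3 with dCas9-VPR. Its part in the values of *FOSB* was not tested.

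The 10 genes spanned a wide range of level. Per kilobase of exonic length in the control, *JUN* stood at 65.7 ± 3.27 CPM per kb (SD, n = 2 throughout) and *ATF3* at 60.9 ± 3.11, and these neighbours differed by less than the sum of their SDs. *JUND* at 36.5 ± 0.68, *DUSP1* at 23.9 ± 2.37 and *IER2* at 11.5 ± 0.14 followed in steps larger than their spread. *JUNB* at 10.8 ± 1.04 overlapped *IER2* within its spread. *EGR1* at 1.37 ± 0.24, *FOS* at 1.36 ± 0.14 and *FOSL1* at 1.04 ± 0.32 overlapped one another, and *FOSB* at 0.98 ± 0.02 was at the bottom within the spread of *FOSL1*. In these cells the JUN proteins and *ATF3* thus had far more transcript per length than the FOS proteins and *EGR1*.

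**Figure D1:**
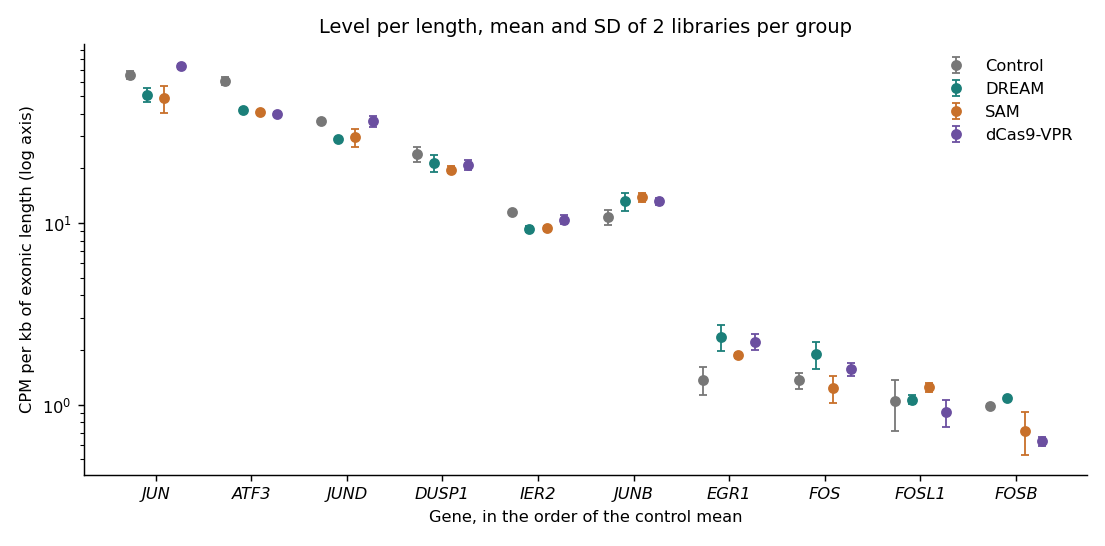
CPM per kilobase of exonic length (log axis) of the 10 genes in the order of the control mean, with points at the mean of 2 libraries, bars of 1 SD and colours for the 4 groups. *JUN* and *ATF3* lead in the control at 65.7 and 60.9 CPM per kb, and *FOSB* is lowest at 0.98.

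The order changed little under activation. *JUN* had the highest mean in every group, at 51.0 ± 4.69 CPM per kb with DREAM, 48.6 ± 8.51 with SAM and 73.1 ± 2.55 with dCas9-VPR, although with SAM its gap to *ATF3* (40.9 ± 0.56) was again smaller than their SDs added. *JUNB* stood above *IER2* in all 3 activator groups, at 13.2 against 9.25 CPM per kb with DREAM, 13.9 against 9.36 with SAM and 13.2 against 10.4 with dCas9-VPR. Each of these gaps was larger than the SDs of both genes added.

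None of the 10 genes was past the threshold of a 2-fold change in any of the 6 comparisons, where 2.55%, 4.34% and 1.1% of all tested genes were past it in DREAM, SAM and dCas9-VPR against the control. The count was likewise 0 in DREAM against SAM (0.721% of all genes), DREAM against dCas9-VPR (0.734%) and SAM against dCas9-VPR (2.31%). At an unadjusted p below 0.05 in the same limma fit, 7, 8 and 4 of the 10 genes were reached in the comparisons with the control, and 2, 4 and 2 in those between systems. Over all 15122 genes, 6075, 7966 and 5172 were reached against the control, and 4410, 4241 and 6268 between systems. Smaller changes were called at any fold. With DREAM 5 of 10 genes were called, against 28.0% of all genes. SAM gave 8 of 10, against 44.6%, and dCas9-VPR gave 3 of 10, against 17.6%. These counts moved with single libraries. With DREAM they were 2 or 1 without replicate 1 or 2 of the control and 7 or 4 without replicate 1 or 2 of DREAM, with SAM 3 without replicate 2 of SAM and 5 without each other library, and with dCas9-VPR 2 without replicate 1 of the control and 1 without each other library. With the replicate number as a block they were 8 with DREAM and 5 with dCas9-VPR.

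Most calls were decreases. With DREAM 1 gene rose (*EGR1*) and 4 fell (*ATF3*, *JUN*, *JUND* and *IER2*), where 18.8% of all genes rose and 9.25% fell. With SAM 2 rose (*EGR1* and *JUNB*) and 6 fell (*ATF3*, *JUN*, *JUND*, *IER2*, *DUSP1* and *FOSB*), where 35.7% rose and 8.89% fell. With dCas9-VPR 1 rose (*EGR1*) and 2 fell (*ATF3* and *FOSB*), where 11.0% rose and 6.68% fell. The median log2 fold change of the 10 genes was -0.06, -0.29 and -0.07, beside 0.06, 0.16 and 0.06 over all genes. Because the median of all genes lay 0.16 above 0 for SAM, the SAM changes were also computed after median-of-ratios scaling, which brought that median to 0.02. On that scale *ATF3* fell by 0.72, *JUN* by 0.59, *FOSB* by 0.56, *JUND* by 0.45, *IER2* by 0.44 and *DUSP1* by 0.43, all still called, while *EGR1* and *JUNB* were no longer called and *FOS* (-0.26) and *FOSL1* (0.11) were not called on either scale. The libraries of each system stood apart from both control libraries in 8 of the 10 genes in each comparison, where 61.2%, 74.5% and 64.9% of all genes did so.

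**Figure D2:**
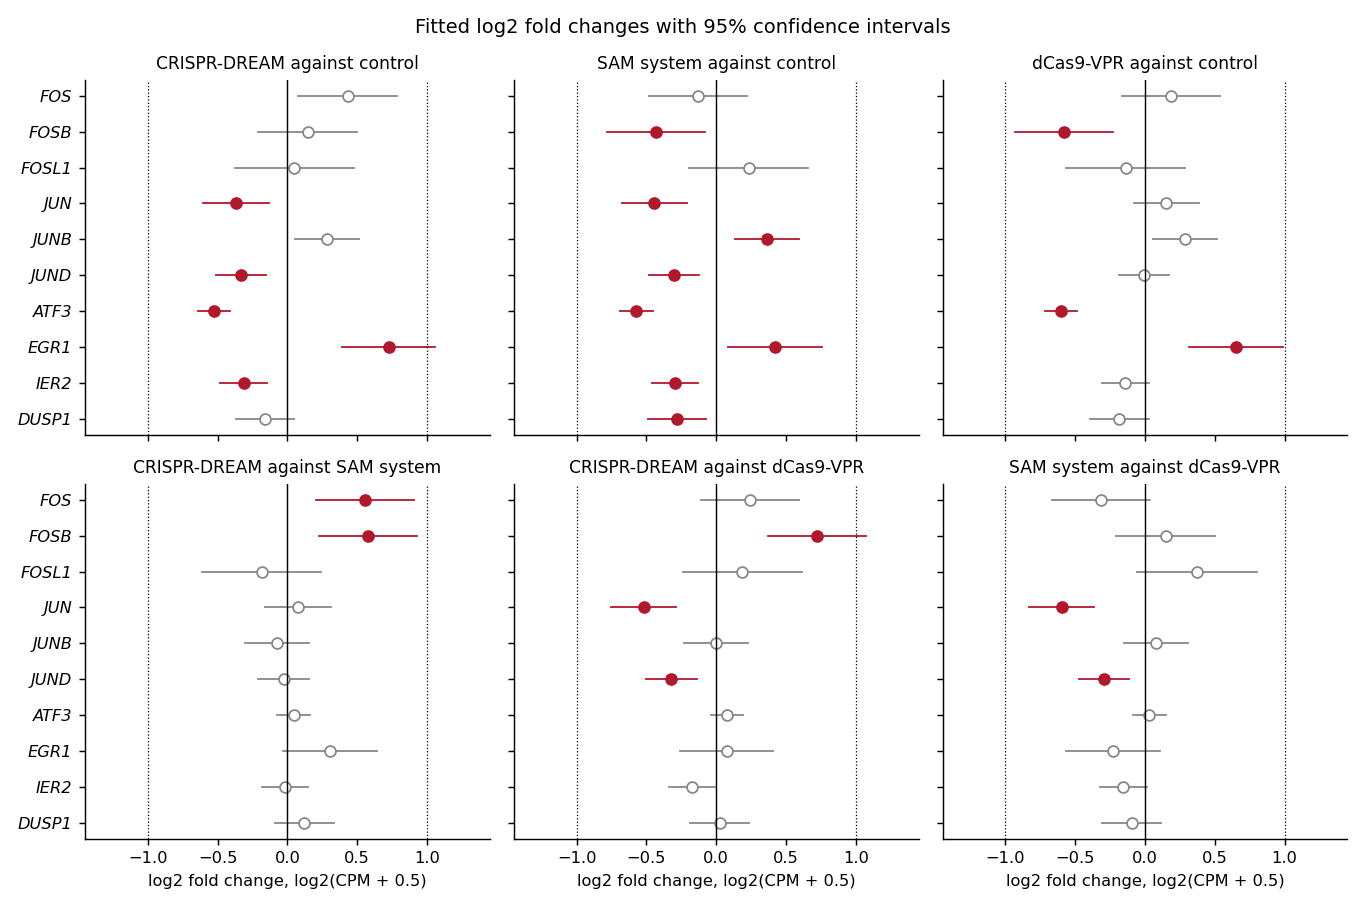
Fitted log2 fold changes of the 10 genes on the log2(CPM + 0.5) scale in 6 comparisons, with 95% confidence intervals, filled red where the FDR was below 0.05 and open grey otherwise, and dotted lines at a 2-fold change. *ATF3* lies to the left of 0 in all 3 comparisons with the control and *EGR1* to the right, with every estimate inside the dotted lines.

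*ATF3*, a stress-responsive repressor and activator of the ATF family, had the smallest adjusted p of the 10 genes in each comparison with the control. It was at 235 and 252 CPM in the control libraries, 166 and 171 with DREAM, 165 and 162 with SAM and 158 and 162 with dCas9-VPR. Every activator library was below both control libraries, and libraries of the 3 systems lay between 158 and 171 CPM. *ATF3* fell by 0.53 on the log2 scale with DREAM (SE 0.05, adjusted p = 8.2e-05), by 0.57 with SAM (adjusted p = 4.5e-05) and by 0.60 with dCas9-VPR (adjusted p = 0.00013), to 0.693, 0.672 and 0.658 of the control mean. The 3 systems differed from each other by 0.03 to 0.08 on the log2 scale, with 95% intervals of -0.07 to 0.16 between DREAM and SAM, -0.04 to 0.19 between DREAM and dCas9-VPR and -0.08 to 0.15 between SAM and dCas9-VPR. The share of CPM in ribosomal protein genes was also highest in the control, at 17.9% and 19.0% against 15.5% to 17.3% in the activator libraries, and its part in this result was not tested. In RNA from mixed cells, fewer cells with the transcript and less transcript per cell cannot be told apart.

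*EGR1*, a zinc finger transcription factor, rose in all 3 systems. It was at 4.82 and 3.75 CPM in the control libraries, 8.22 and 6.57 with DREAM, 5.97 and 5.74 with SAM and 7.47 and 6.48 with dCas9-VPR. All 6 activator libraries were above both control libraries. *EGR1* rose by 0.72 on the log2 scale with DREAM (SE 0.15, adjusted p = 0.0057), by 0.42 with SAM (adjusted p = 0.044) and by 0.65 with dCas9-VPR (adjusted p = 0.017), which is 1.73, 1.37 and 1.63 times the control mean. No pair of systems differed at the FDR, with 95% intervals of -0.03 to 0.64 for DREAM against SAM, -0.26 to 0.41 for DREAM against dCas9-VPR and -0.57 to 0.10 for SAM against dCas9-VPR. These levels rest on about 115 to 261 reads a library. Without replicate 2 of the control, its lower library, the adjusted p became 0.056, 0.29 and 0.14 in the 3 comparisons, and after median-of-ratios scaling the change with SAM was 0.28 (adjusted p = 0.13). The call with SAM was also lost without replicate 1 (adjusted p = 0.16) or 2 (0.11) of that group, and the one with dCas9-VPR without replicate 1 (0.14) or 2 (0.061) of its own.

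**Figure D3:**
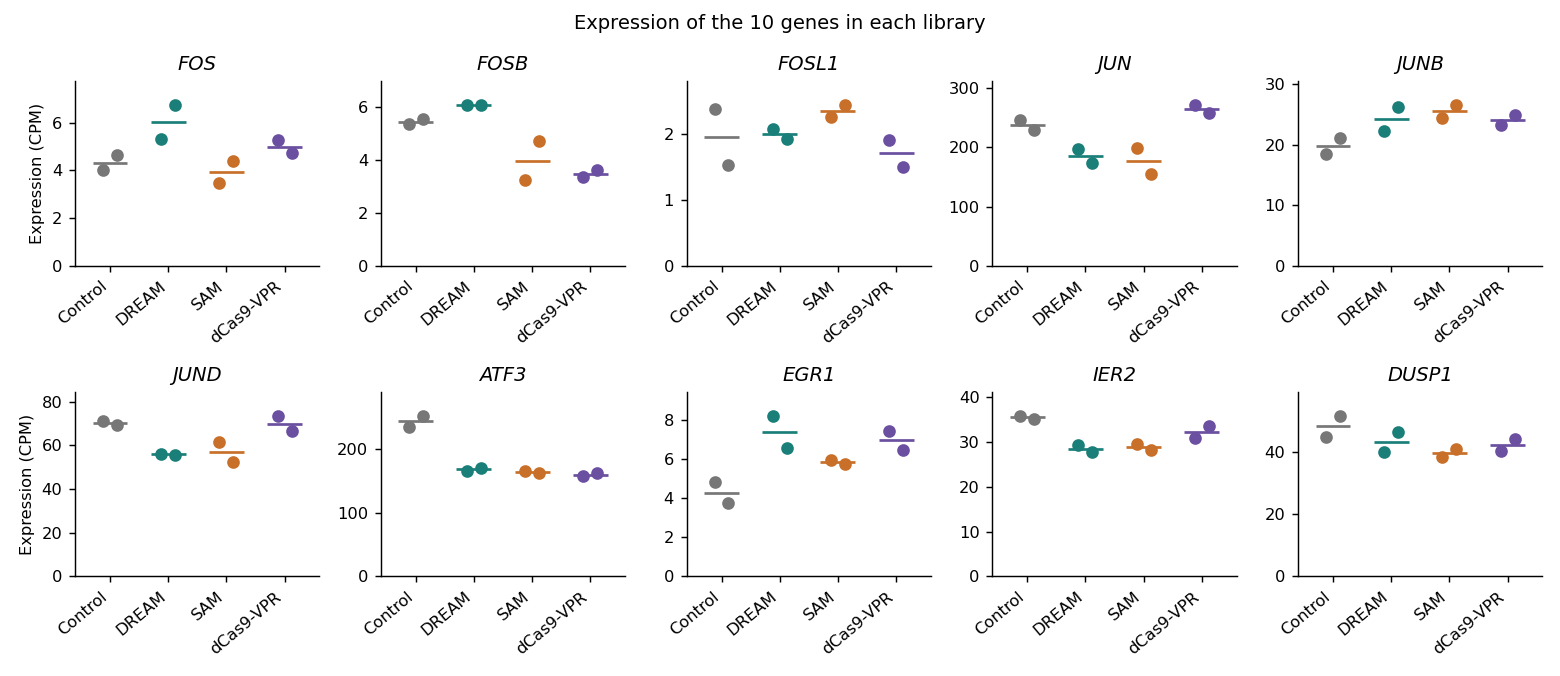
Expression in CPM (linear axes from 0, a scale for each gene) of the 10 genes, with a point for each of the 2 libraries per group and a line at their mean. The 6 activator libraries hold 158 to 171 CPM of *ATF3* against 235 and 252 in the control, and 5.74 to 8.22 CPM of *EGR1* against 3.75 and 4.82.

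*JUN*, the founding member of the JUN family, and *JUND*, the JUN protein with the steadiest expression in most cells, separated the MS2-recruited systems from dCas9-VPR. *JUN* was at 247 and 230 CPM in the control libraries, 197 and 173 with DREAM, 198 and 155 with SAM and 271 and 258 with dCas9-VPR. The 4 DREAM and SAM libraries were below both control libraries, and the dCas9-VPR libraries were above them. *JUN* fell by 0.37 on the log2 scale with DREAM (SE 0.10, adjusted p = 0.027) and by 0.44 with SAM (adjusted p = 0.0075), while the difference with dCas9-VPR was 0.15 (95% interval -0.08 to 0.39, adjusted p = 0.33, or 0.046 when only the 4 libraries compared were fitted). Tested directly, *JUN* was lower with DREAM than with dCas9-VPR (-0.52, SE 0.10, adjusted p = 0.012) and lower with SAM than with dCas9-VPR (-0.60, adjusted p = 0.0028). Both SAM differences were called without each library in turn. With DREAM the adjusted p against the control became 0.12 or 0.062 without replicate 1 or 2 of the control and 0.17 without replicate 2 of DREAM, and that against dCas9-VPR became 0.097 without replicate 2 of DREAM and 0.090 or 0.065 without replicate 1 or 2 of dCas9-VPR.

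*JUND* was likewise lower with DREAM and SAM than in the control. It was at 71.3 and 69.4 CPM in the control libraries, 56.2 and 55.5 with DREAM, 61.7 and 52.6 with SAM and 73.5 and 66.4 with dCas9-VPR. The DREAM and SAM libraries were again below all 4 others, and the dCas9-VPR libraries lay on either side of the control. *JUND* fell by 0.33 with DREAM (SE 0.08, adjusted p = 0.013) and by 0.30 with SAM (adjusted p = 0.013), and differed by -0.01 with dCas9-VPR (95% interval -0.19 to 0.17, adjusted p = 0.95). It was lower with DREAM than with dCas9-VPR (-0.32, adjusted p = 0.028) and lower with SAM than with dCas9-VPR (-0.29, adjusted p = 0.021). Against the control the adjusted p with DREAM became 0.068 or 0.057 without replicate 1 or 2 of the control, and with SAM 0.063 without replicate 1 of the control and 0.12 without replicate 2 of SAM, the library with the lowest *JUN* and *JUND*. Against dCas9-VPR it became 0.073 for DREAM without its replicate 2 and 0.22 or 0.076 without replicate 1 or 2 of dCas9-VPR, and for SAM 0.18 without its replicate 2 and 0.17 without replicate 1 of dCas9-VPR. Across the 8 libraries *JUN* and *JUND* had a Pearson r of 0.94 on the log2 scale, a description over libraries that share groups.

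*JUNB*, which pairs with *FOS* but activates AP-1 sites less strongly than *JUN*, stood on the other side of the control from *JUN* and *JUND* with DREAM and SAM. It was at 18.4 and 21.1 CPM in the control libraries, 22.2 and 26.1 with DREAM, 24.4 and 26.5 with SAM and 23.2 and 24.9 with dCas9-VPR. Every activator library was above both control libraries. *JUNB* rose by 0.36 with SAM (SE 0.10, adjusted p = 0.017), and the difference was 0.28 with DREAM (95% interval 0.06 to 0.51, adjusted p = 0.064) and 0.28 with dCas9-VPR (0.05 to 0.51, adjusted p = 0.082). After median-of-ratios scaling the SAM value was 0.22 (adjusted p = 0.16), and it was 0.12 without replicate 1 of the control and 0.11 without replicate 2 of SAM in adjusted p. Without replicate 1 of DREAM the difference in that group was 0.40 (adjusted p = 0.024). With the replicate number as a block the adjusted p of *JUNB* was 0.0026 with DREAM and 0.0034 with dCas9-VPR, and the latter was 0.039 when only the 4 libraries compared were fitted. *HOOK2*, which shares exonic bases with *JUNB* on the other strand, was at 13.6 and 12.7 CPM in the control libraries, 15.1 and 13.2 with DREAM, 11.8 and 11.9 with SAM and 12.9 and 12.3 with dCas9-VPR, and its part in the values of *JUNB* was not tested.

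The shares within the JUN family are given as a description, with no test. Per exonic length, *JUN* made up 58.2% ± 1.40 (SD, n = 2) of the summed *JUN*, *JUNB* and *JUND* in the control, 54.7% ± 3.03 with DREAM, 52.6% ± 2.93 with SAM and 59.6% ± 0.12 with dCas9-VPR. *JUNB* made up 9.55% ± 1.17 in the control, 14.2% ± 2.16 with DREAM, 15.3% ± 2.7 with SAM and 10.8% ± 0.93 with dCas9-VPR. *JUND* kept to 29.6% to 32.3% of the family in all 4 groups. The family sum was 113 ± 2.91 CPM per kb in the control, 93.1 ± 3.41 with DREAM, 92.2 ± 11.0 with SAM and 123 ± 4.52 with dCas9-VPR.

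**Figure D4:**
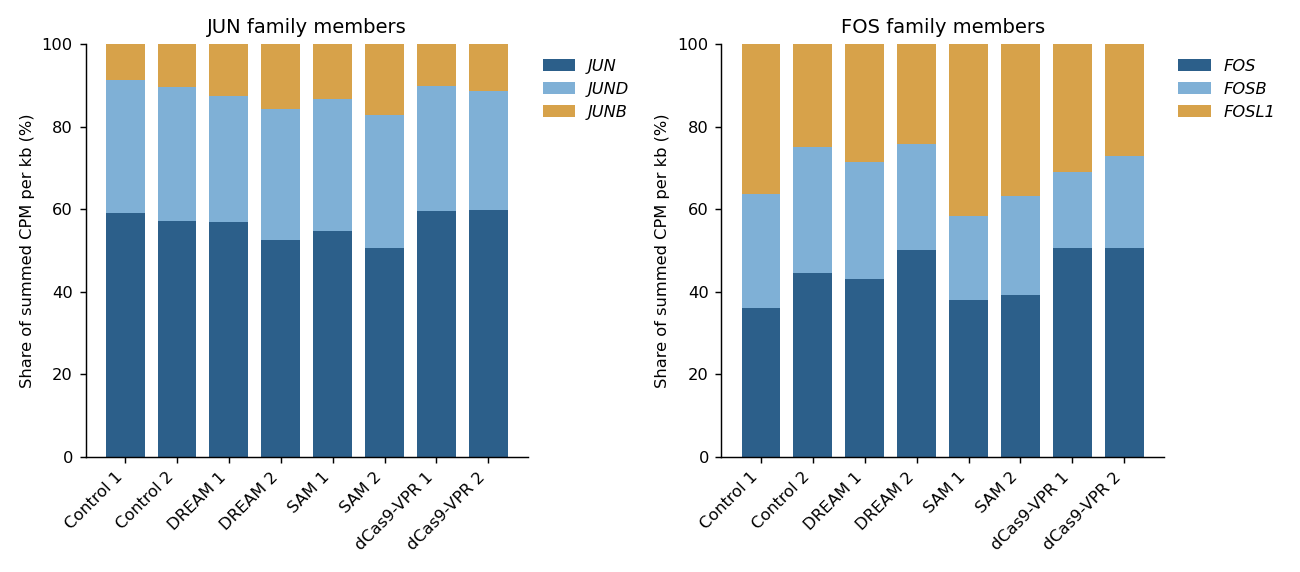
Shares of the summed CPM per kilobase of exonic length taken by *JUN*, *JUND* and *JUNB* (left) and by *FOS*, *FOSB* and *FOSL1* (right) in each of the 8 libraries, in percent. *JUNB* takes a mean of 9.55% of its family in the control and 15.3% with SAM. *FOS* takes 40.3% of the FOS genes shown, which leave out *FOSL2*, in the control and 50.5% with dCas9-VPR.

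The FOS proteins, which bind DNA only together with a partner, had few transcripts. *FOS* was at 4.02 and 4.63 CPM in the control libraries, 5.31 and 6.74 with DREAM, 3.46 and 4.41 with SAM and 5.27 and 4.72 with dCas9-VPR. The DREAM and dCas9-VPR libraries were above the control and the SAM libraries overlapped it. Against the control the differences were 0.43 (95% interval 0.08 to 0.78, adjusted p = 0.067), -0.13 (-0.48 to 0.22, adjusted p = 0.54) and 0.19 (-0.16 to 0.54, adjusted p = 0.44). *FOS* was higher with DREAM than with SAM by 0.56 (SE 0.16, adjusted p = 0.049), 1 of 2 genes called in that comparison beside 10.7% of all genes. That adjusted p was 0.23 without replicate 2 of DREAM, 0.24 or 0.13 without replicate 1 or 2 of SAM, 0.055 with no filter on low values, 0.052 with a pseudocount of 0.1 and 0.10 when only the 4 libraries compared were fitted. Against the control, *FOS* with DREAM had an adjusted p of 0.038 without replicate 1 of DREAM and 0.012 with the replicate number as a block.

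*FOSB*, the FOS relative known for the long-lived deltaFosB splice form, split the groups differently. It was at 5.36 and 5.54 CPM in the control libraries, 6.07 in both DREAM libraries, 3.23 and 4.72 with SAM and 3.35 and 3.63 with dCas9-VPR. The SAM and dCas9-VPR libraries were below the control and the DREAM libraries above it. *FOSB* fell by 0.43 with SAM (SE 0.16, adjusted p = 0.047) and by 0.58 with dCas9-VPR (adjusted p = 0.032), and differed by 0.14 with DREAM (95% interval -0.21 to 0.50, adjusted p = 0.53). DREAM was higher than SAM by 0.58 (adjusted p = 0.045) and higher than dCas9-VPR by 0.72 (adjusted p = 0.016), while SAM and dCas9-VPR differed by 0.15 (95% interval -0.20 to 0.50). *FOSB* rested on about 113 to 192 reads a library, and leaving out 1 library often ended a call. With SAM the adjusted p was 0.11 or 0.17 without replicate 1 or 2 of the control and 0.38 without replicate 1 of SAM, its lower library, and it was also lost with no filter on low values (0.054) and in a fit of only the 4 libraries compared (0.063). With dCas9-VPR it was 0.082 or 0.17 without replicate 1 or 2 of the control and 0.18 or 0.11 without replicate 1 or 2 of dCas9-VPR. Between DREAM and SAM it was between 0.068 and 0.24 without each of the 4 libraries and 0.10 when only these 4 were fitted, and between DREAM and dCas9-VPR it was 0.12 or 0.083 without replicate 1 or 2 of dCas9-VPR.

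*FOSL1* (FRA1), the FOS relative sustained by MAP kinase signalling in growing tumour cells, had the fewest reads. It was at 2.39 and 1.53 CPM in the control libraries, 2.09 and 1.93 with DREAM, 2.26 and 2.45 with SAM and 1.92 and 1.51 with dCas9-VPR, which is about 47 to 86 reads. The 2 control libraries spanned nearly the range of all the others. No comparison of *FOSL1* was called, and the intervals against the control were -0.38 to 0.48, -0.19 to 0.66 and -0.57 to 0.29, so differences within these intervals were not detectable with these libraries.

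The FOS sum here holds *FOS*, *FOSB* and *FOSL1* and leaves out their relative *FOSL2*. *FOSL2* was at 0.96 CPM per kb in the control, 1.21 with DREAM, 1.30 with SAM and 1.31 with dCas9-VPR. Of this sum, *FOS* made up 40.3% ± 5.96 in the control, 46.6% ± 4.85 with DREAM, 38.6% ± 0.91 with SAM and 50.5% ± 0.02 with dCas9-VPR. *FOSB* made up 29.1% ± 2.10, 27.1% ± 1.72, 22.2% ± 2.67 and 20.3% ± 2.71 in the same order. The JUN family had 32.9 and 34.0 times this FOS sum in the control, 24.7 and 21.4 times with DREAM, 34.9 and 23.9 times with SAM and 38.4 and 40.7 times with dCas9-VPR. For these genes the ratio was thus lower than the control in both DREAM libraries and higher in both dCas9-VPR libraries, and the SAM libraries lay on either side. The ratio with *FOSL2* in the sum would be lower in every library and was not computed, so this order may not hold for the whole family. With 2 libraries a group an exact permutation test of this ratio cannot go below p = 0.333, and none was run.

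*IER2* and *DUSP1*, the latter a phosphatase that inactivates MAP kinases, both fell with SAM. *IER2* was at 35.8 and 35.2 CPM in the control libraries, 29.3 and 27.7 with DREAM, 29.4 and 28.2 with SAM and 30.8 and 33.5 with dCas9-VPR. All activator libraries were below the control. *IER2* fell by 0.31 with DREAM (SE 0.08, adjusted p = 0.011) and by 0.30 with SAM (adjusted p = 0.0095), and differed by -0.14 with dCas9-VPR (95% interval -0.31 to 0.03, adjusted p = 0.21). The adjusted p was 0.060 or 0.056 with DREAM without replicate 1 or 2 of the control, and 0.065 with SAM without replicate 2 of that group. Whether *IER2* differed between the systems was not shown, with -0.17 (adjusted p = 0.16) for DREAM and -0.16 (adjusted p = 0.14) for SAM against dCas9-VPR. After median-of-ratios scaling the latter was -0.25 (adjusted p = 0.026).

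*DUSP1* was at 44.8 and 51.6 CPM in the control libraries, 39.9 and 46.3 with DREAM, 38.3 and 40.8 with SAM and 40.3 and 44.2 with dCas9-VPR. The SAM and dCas9-VPR libraries were below the control and the DREAM libraries overlapped it. *DUSP1* fell by 0.28 with SAM (SE 0.10, adjusted p = 0.035), and differed by -0.16 with DREAM (95% interval -0.37 to 0.05) and -0.19 with dCas9-VPR (-0.40 to 0.03). The SAM call was lost without replicate 2 of the control (adjusted p = 0.25) or replicate 1 (0.17) or 2 (0.069) of SAM. With the replicate number as a block the adjusted p was 0.030 with DREAM and 0.016 with dCas9-VPR.

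In direct comparisons of the systems, 2 of the 10 genes were called in DREAM against SAM (*FOS* and *FOSB*, both higher, where 1.59% of all genes were higher and 9.14% lower). Against dCas9-VPR, 3 were called for DREAM (*FOSB* higher, *JUN* and *JUND* lower, beside 13.1% of all genes, 7.9% higher and 5.21% lower) and 2 for SAM (*JUN* and *JUND*, both lower, beside 29.9% of all genes, 23.6% higher and 6.32% lower). DREAM against SAM gave 1 gene without replicate 1 of DREAM and 0 without each other library, DREAM against dCas9-VPR gave 1 without replicate 2 of DREAM and 0 without either dCas9-VPR library, and SAM against dCas9-VPR gave 1 without replicate 2 of SAM or replicate 1 of dCas9-VPR. The libraries did not overlap in 5, 7 and 7 of the 10 genes, where 55.5%, 54.7% and 69.5% of all genes did not overlap.

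Other genes of the pathway were examined by role, and 7 of them were past the 2-fold threshold against the control in at least 1 system. Over all tested genes, 18.8% rose and 9.25% fell with DREAM, 35.7% and 8.89% with SAM, and 11.0% and 6.68% with dCas9-VPR. Past the threshold were 2.55%, 4.34% and 1.1%. The list counts below are to be read beside these shares, and no list was tested against them. Of 9 other AP-1 family and partner genes tested, 1 rose and 2 fell with DREAM, 2 rose and 2 fell with SAM, and 1 rose and 2 fell with dCas9-VPR. *MAFF*, a small MAF protein that lacks an activation domain, was at 11.3 and 12.5 CPM in the control libraries, 4.52 and 5.86 with DREAM, 6.43 and 8.16 with SAM and 3.98 and 4.33 with dCas9-VPR. It fell by 1.13 with DREAM (SE 0.15, adjusted p = 0.00049) and by 1.41 with dCas9-VPR (adjusted p = 0.00044), past the threshold, and by 0.68 with SAM (adjusted p = 0.0051). *BATF2*, a basic leucine zipper partner of JUN proteins, rose by 1.18 with SAM (SE 0.18, adjusted p = 0.00062), from 0.734 and 1.14 to 2.80 and 2.64 CPM, and by 0.68 and 0.62 with DREAM and dCas9-VPR.

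Of the 3 other EGR genes and NAB co-repressors tested, *EGR3* was called in each system while *NAB1* and *NAB2*, which restrain EGR proteins, were not. *EGR2* did not pass the filter. It averaged 0.66 CPM in the control, 0.62 with DREAM, 1.04 with SAM and 0.71 with dCas9-VPR. *EGR3* was at 1.12 and 0.88 CPM in the control libraries, which is about 35 and 27 reads. It was at 2.88 and 3.30 CPM with DREAM, 2.46 and 3.47 with SAM and 1.83 and 2.15 with dCas9-VPR. As with *EGR1*, all activator libraries were above the control. *EGR3* rose by 1.26 with DREAM (SE 0.19, adjusted p = 0.00082) and by 1.20 with SAM (adjusted p = 0.00069), past the threshold, and by 0.73 with dCas9-VPR (adjusted p = 0.023). *NAB2* differed by 0.05 with DREAM, and *NAB1* by 0.09 with SAM and 0.08 with dCas9-VPR.

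Among 24 other immediate early genes, 6 rose and 5 fell with DREAM, 6 rose and 7 fell with SAM, and 3 rose and 3 fell with dCas9-VPR. *CCN2*, a matricellular protein and textbook target of SRF and YAP, was past the threshold with SAM, at 8.60 and 11.7 CPM against 3.86 and 3.72 in the control (log2 fold change 1.30, SE 0.15, adjusted p = 0.00018). *BTG2*, an antiproliferative gene, rose in all 3 systems by 0.82, 0.76 and 0.73 and was at 45.1 CPM or more in each activator library against 30.1 and 26.9 in the control. *ZFP36*, which destabilizes AU-rich mRNAs, rose by 0.83 with SAM. *GADD45B* fell in all 3 systems, by 0.66 with DREAM, 0.74 with SAM and 0.59 with dCas9-VPR. So did *PPP1R15A*, a phosphatase subunit of the integrated stress response, by 0.44, 0.31 and 0.72 in the same order.

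Of 12 MAPK feedback inhibitors, which like *DUSP1* act against MAP kinase signalling, 1 rose and 3 fell with DREAM, 3 rose and 3 fell with SAM, and 0 rose and 3 fell with dCas9-VPR. *DUSP2* was past the threshold with SAM, at 3.63 and 3.16 CPM against 1.34 and 1.47 (1.03, SE 0.16, adjusted p = 0.00062), and rose by 0.94 with DREAM. *DUSP10* fell by 0.89 with DREAM, 0.56 with SAM and 0.55 with dCas9-VPR, and *DUSP8* by 0.58, 0.71 and 0.55 in the same order. *DUSP6*, counted above as a fall with dCas9-VPR, was at 0.54 and 0.52 CPM there (about 19 and 16 reads). The control libraries held 1.23 and 1.54 CPM (about 38 and 47 reads). It would not have passed the filter on low values without the control libraries, where it was highest, so this call was favoured by the filter. Of 19 upstream kinases and TCF, SRF and CREB factors, 5 rose and 0 fell with DREAM, 7 rose and 1 fell with SAM, and 2 rose and 0 fell with dCas9-VPR, all by less than 2-fold. The ERK kinase gene *MAP2K2* rose by 0.52 with DREAM, *MAPK8* (JNK1) by 0.48 with SAM, and the ternary complex factor *ELK3* by 0.39, 0.71 and 0.35 in the 3 systems. *ELK4* differed by 0.30 with dCas9-VPR (adjusted p = 0.18).

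Of 14 textbook AP-1 and *EGR1* target genes tested, 4 rose and 2 fell with DREAM, 3 rose and 2 fell with SAM, and 2 rose and 1 fell with dCas9-VPR. *VIM*, already given above as a HEK293T marker, is also in this list and is among the falls with DREAM and with SAM. *HBEGF*, a growth factor of the EGF family, was past the threshold with DREAM alone of the 3 systems, at 13.8 and 16.7 CPM against 6.06 and 6.72 in the control (1.19, SE 0.15, adjusted p = 0.00031), and was higher than with SAM by 0.95 (adjusted p = 0.0079) and than with dCas9-VPR by 0.94 (adjusted p = 0.0039). *PLAU*, the urokinase protease, was past it with SAM, at 12.1 and 14.2 CPM against 5.23 and 6.29 (1.12, SE 0.13, adjusted p = 0.00013). *TGFB1* rose in all 3 systems, by 0.79 with DREAM, and *TIMP1* rose by 0.55 with dCas9-VPR. *CXCL8* fell by 0.83 with SAM and *LIF* by 0.73 with dCas9-VPR. The medians of the 6 lists ran from -0.12 to 0.17 over the 3 systems.

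**Figure D5:**
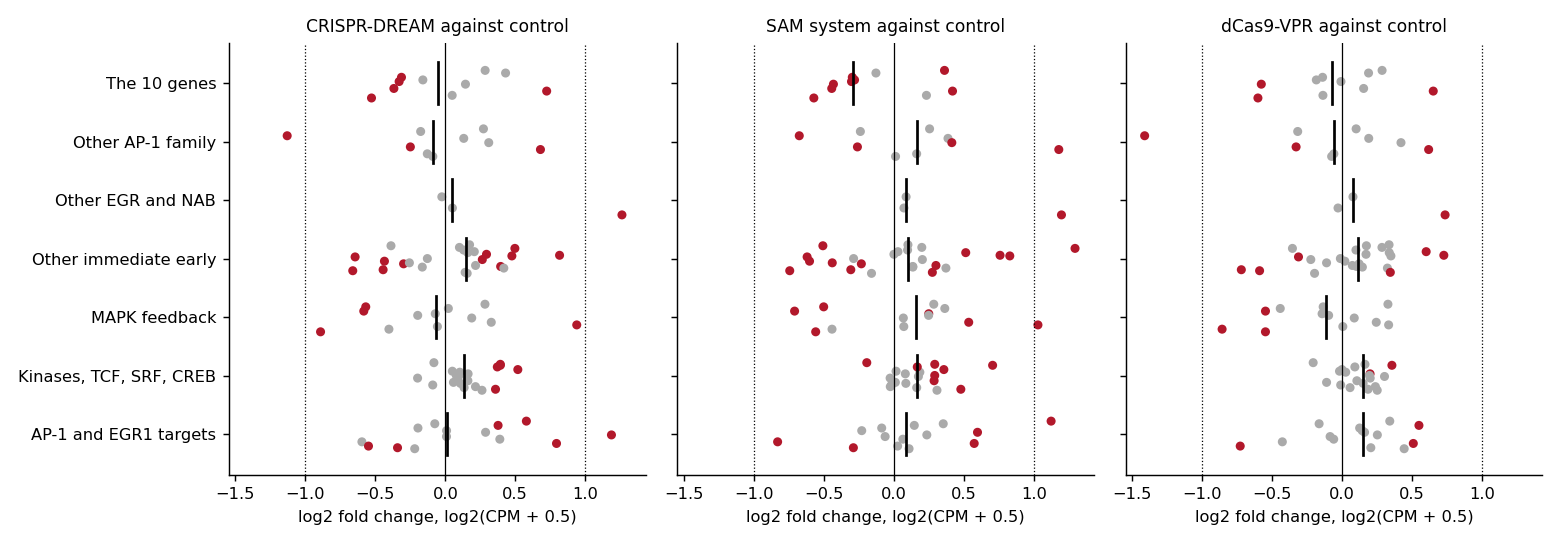
Log2 fold changes against the control on the log2(CPM + 0.5) scale for the 10 genes and 6 lists of related genes in the 3 systems, with a point for each gene (red where the FDR was below 0.05), a bar at the list's median and dotted lines at a 2-fold change. The 10 genes stay inside the dotted lines, while *MAFF* lies at -1.13 with DREAM and -1.41 with dCas9-VPR and *EGR3* at 1.26 and 1.20 with DREAM and SAM.

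The genes whose pattern over the 8 libraries was most like that of the 3 members with the widest range of group means were sought among 11348 other genes whose mean reached 5 CPM. For *EGR1* they were *UCP2* (Pearson r 0.984), *HPRT1* (0.982) and *CARM1* (0.980). For *FOSB* they were the readthrough gene *TGIF2-RAB5IF* (0.961), *LENG1* (0.958) and *LRRC42* (0.946). For *ATF3* they were *WASHC1* (0.996), the ribosomal protein gene *RPL6* (0.994) and *XBP1* (0.992), a factor of the unfolded protein response, whose 2 control libraries held 451 and 459 CPM and the activator libraries 352 to 371 CPM. The points share libraries and groups and these are the highest of many coefficients, so they are given as a description only. Among the 10 genes themselves, *EGR1* and *ATF3* had a Pearson r of -0.86 over the same 8 libraries.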

How the data were processed

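RNA-seq was performed on HEK293T cells in 4 groups of 2 libraries, grouped by the sample titles. Per the labels and the methods, the authors aligned paired-end 75-base reads to hg38 (Gencode release 36) with STAR 2.7.3a, quantified transcripts with a Bayesian method and normalized to CPM. The CPM values they deposited carry an added 0.0001. The comparisons had been planned for counts if the files held them. Because they hold CPM, of which only 65.0% to 69.9% of low values came out as whole reads (tolerance 0.05 reads), no count test was run, and depth was estimated from the steps between low values.

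Log2(CPM + 0.5) was fitted here with limma 3.58.1 (trend and robust options) in R 4.3.3, with 1 coefficient for each group, all 8 libraries, 4 residual degrees of freedom and 6 contrasts. The 15122 genes that reached 1 CPM in 2 or more libraries were tested, and p-values were adjusted by Benjamini-Hochberg over this whole set. A log2 fold change on this scale understates the change of low genes. The fit was also run on simulated data. That simulation drew independent libraries with the same added spread for every gene, so it cannot show how the fit performs on these values. An exact permutation test of 2 against 2 libraries cannot go below p = 0.333. Exonic lengths and overlaps came from Gencode release 44 and upstream sequences from RefSeq on GRCh38.p14. Read counts are approximate and cover counting error only.

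The genes and lists were chosen with earlier results of these data known. Beside the 10 genes, the text names those of each list past the threshold against the control and the 2 of each list with the largest absolute log2 fold change in each such comparison, and for the 3 members with the widest range of group means the 3 most correlated genes. Values of *BTG2*, *TGFB1*, *GADD45B*, *PPP1R15A*, *DUSP8* and *DUSP10* in systems where they were not among those 2 were added after they were seen. The means of *EGR2*, which did not pass the filter, were added in the same way. List genes not among the rows of the files were not analysed here. The alternatives were another scaling, filter, pseudocount, threshold, set of libraries, a replicate block and leaving out each library.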

Additional observations from a re-analysis of the deposited data

How the results depend on the processing

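Over the 60 member log2 fold changes and their 696 alternatives, 605 kept direction and side of the 0.05 FDR, 54 lost the call, 10 gained one and 27 changed sign. The decrease of *ATF3* kept its call under all 12 alternatives in each of the 3 comparisons with the control, and that of *JUN* with SAM under all 12. Every sign change was of a value that had not been called. The count past a 2-fold change stayed at 0 in all 6 comparisons under each alternative except those that lower the fold. In the order DREAM, SAM and dCas9-VPR against the control, then DREAM against SAM, DREAM against dCas9-VPR and SAM against dCas9-VPR, a 1.5-fold threshold gave 1, 0, 2, 0, 1 and 1 genes and no fold threshold gave 5, 8, 3, 2, 3 and 2.

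At any fold, the replicate block gave 8 genes with DREAM against 5 without it, and 5 with dCas9-VPR against 3. The replicate numbers were not shown to pair the libraries, since only 2 numbers exist, although differences between replicates correlated across groups (r = 0.133 to 0.326 over 15122 genes). A filter at 10 CPM, which leaves out *FOS*, *FOSB*, *FOSL1* and *EGR1*, gave 1 gene with dCas9-VPR and 0 between DREAM and SAM. Fitting only the 4 libraries compared gave 5 with dCas9-VPR and 0 between DREAM and SAM. Between DREAM and SAM, no filter gave 1 and a pseudocount of 0.1 gave 1. Leaving out single libraries gave 1 (without replicate 2 of the control) to 7 genes (without replicate 1 of DREAM) with DREAM, 3 (without replicate 2 of SAM) to 5 with SAM, 1 to 2 (2 without replicate 1 of the control) with dCas9-VPR, 0 to 1 for DREAM against SAM, 0 (without either replicate of dCas9-VPR) to 3 for DREAM against dCas9-VPR and 1 to 2 for SAM against dCas9-VPR. A group left with 1 library is assumed to vary like the others. The causes of these changes were not tested.

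Signs changed as follows. Median-of-ratios scaling gave -8.5e-05 for *FOSL1* with DREAM, 0.068 for *IER2*, 0.0071 for *JUNB* and 0.058 for *JUND* in DREAM against SAM, -0.0044 for *JUNB* in DREAM against dCas9-VPR, and -0.060 for *ATF3* and -0.012 for *JUNB* in SAM against dCas9-VPR. A pseudocount of 0.1 gave -5.2e-05 for *JUNB* in DREAM against dCas9-VPR. Leaving out single libraries gave *FOSL1* -0.21 to 0.30 with DREAM, -0.021 to 0.49 with SAM and -0.39 to 0.12 with dCas9-VPR, *FOS* -0.28 to 0.027 with SAM and *JUND* -0.083 to 0.064 with dCas9-VPR. In DREAM against SAM it gave *IER2* -0.057 to 0.024, *JUN* -0.10 to 0.25, *JUNB* -0.19 to 0.038 and *JUND* -0.14 to 0.086. Against dCas9-VPR it gave *DUSP1* -0.082 to 0.13, *EGR1* -0.078 to 0.23 and *JUNB* -0.12 to 0.12 with DREAM, and *FOSB* -0.095 to 0.39 with SAM.

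*FOSL1* rested on 47 to 86 reads a library and *FOS*, *FOSB* and *EGR1* on 113 to 261. Replicates of these genes differed by up to 3.11 times the SD that counting alone gives (*FOSB* with SAM), so their spread was not counting error alone, and each group had 2 libraries. The ratio was larger in some genes with more reads. It was 13.7 for *JUN* with SAM, 6.83 for *JUN* with DREAM, 5.04 for *JUND* with SAM and 4.44 for *ATF3* in the control.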
